A study of Mus musculus with 4 samples.

Results

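The genes described here are 10 adhesion receptor genes, namely the integrin subunits Itga2, Itga3, Itgav, Itgb6 and Itgb8, the classical cadherins Cdh1, Cdh2, Cdh3 and Cdh5, and the atypical cadherin Fat1. They were chosen by name from the 21436 protein-coding genes of a GRCm38 RefSeq gene table that could be given a strand. For the contrast with Cdh2 and Cdh5, the other 8 were grouped as epithelial, which does not mean that each is confined to epithelia. What was measured is the opening of chromatin to the Tn5 transposase by bulk ATAC-seq in mouse salivary gland organoids (mSGOs), grown from the submandibular gland of C57BL/6 mice and not irradiated. The labels list 4 samples, 2 of passage 1 and 2 of passage 2, and each passage has 1 sample labelled with an age of 12 weeks and 1 with an age of 3 months. All were cultured in Matrigel with EGF, FGF2, N2, insulin, dexamethasone, the kinase inhibitor Y27632 and media conditioned with R-spondin1 and Wnt3a. The authors deposited 1 list of open regions, taken here to be made from all 4 samples, which holds 32011 distinct regions and gives no separate values for any sample. There is therefore no replicate spread, the depth of each sample is unknown, and none of the differences below was tested. In such bulk material, a region open in few cells and a region weakly open in many cannot be told apart. A gene without a listed region is one at which no region passed the authors' peak calling and filter for reproducibility between replicates at this depth.

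Integrins are receptors made of an alpha and a beta chain that hold cells to the extracellular matrix, and in glands they anchor the basal layer of the ducts to the basement membrane. Classical cadherins join neighbouring cells of the same kind through calcium-dependent contacts that catenins link to actin. E-cadherin (Cdh1) is the cadherin of epithelia, P-cadherin (Cdh3) that of their basal cells, N-cadherin (Cdh2) is found in neural and mesenchymal cells, and VE-cadherin (Cdh5) in endothelium. As a check of the tissue, 4 of 7 epithelial marker genes (Epcam, Krt5, Krt14 and Krt8) had an open region at the outermost 5′ end. The limit was 1 kb, as below. Krt14 had none, however, within 1 kb of any of its starts in the RefSeq promoter table. An open region at the outermost end was listed for 0 of 6 endothelial, 0 of 6 fibroblast and 1 of 6 immune markers (Cd68), and for 38.3% of all protein-coding genes. Within the gene the markers did not divide in this way, since 2 of 7 epithelial and 3 of 6 endothelial markers (Pecam1, Vwf and Tek) held a region, as did 1 of 6 fibroblast and 0 of 6 immune markers.

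Promoter sequences are shown for integrin starts with an open region over all or part of the bases before them and, for contrast, for the outermost Itgb6 start, which had none there. Each run holds the 250 bases before a transcript start in the RefSeq promoter table of GRCm38.p6, read 5′ to 3′ on the strand of the gene. That table held 6 of the 10 genes, namely the integrins and Fat1, and none of the classical cadherins. Capitals mark matches, on either strand, to 1 of 7 short words. The first was CAGGTG, an E-box read by Snail and Zeb factors. The GC box was searched as GGGCGG and the binding word of NF-Y as CCAAT. The word for AP-1 factors was TGANTCA, whereas TEAD factors were given GGAATG as their word. For RUNX factors the search used TGTGGT, and the TATA box was written as TATAAA. No matches overlapped in the runs printed.
Itgb8, chr12:119238277-119238526, minus strand: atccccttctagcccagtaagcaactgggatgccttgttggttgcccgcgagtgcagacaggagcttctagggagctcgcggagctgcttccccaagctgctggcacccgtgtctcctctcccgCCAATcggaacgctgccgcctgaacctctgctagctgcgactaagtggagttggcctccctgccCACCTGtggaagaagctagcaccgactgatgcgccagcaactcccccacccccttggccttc
Itgav, chr2:83724147-83724396, plus strand: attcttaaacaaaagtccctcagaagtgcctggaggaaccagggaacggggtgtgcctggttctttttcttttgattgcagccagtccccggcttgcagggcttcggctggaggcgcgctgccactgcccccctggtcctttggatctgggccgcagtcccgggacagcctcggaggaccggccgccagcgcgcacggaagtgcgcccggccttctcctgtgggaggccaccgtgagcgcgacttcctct
Itgb6 inner start, chr2:60673694-60673943, minus strand: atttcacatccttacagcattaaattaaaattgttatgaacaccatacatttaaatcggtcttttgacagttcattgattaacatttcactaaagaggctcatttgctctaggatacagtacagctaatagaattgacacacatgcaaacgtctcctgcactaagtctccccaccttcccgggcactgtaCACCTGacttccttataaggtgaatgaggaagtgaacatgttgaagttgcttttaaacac
Itgb6 outermost start, chr2:60722604-60722853, minus strand: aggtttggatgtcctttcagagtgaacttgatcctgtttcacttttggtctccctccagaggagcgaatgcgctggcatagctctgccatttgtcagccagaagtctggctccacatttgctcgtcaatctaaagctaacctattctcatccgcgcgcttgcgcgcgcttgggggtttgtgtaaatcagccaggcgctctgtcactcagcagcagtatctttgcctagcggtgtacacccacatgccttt

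The open regions covered all 250 bases of the Itgb8 run, all 250 of the Itgav run and 146 of the inner Itgb6 run. The outermost Itgb6 run had 0 bases under a region. The E-box word, in both cases on the opposite strand, stood from 62 to 57 bases before the start of Itgb8 and from 60 to 55 bases before the inner start of Itgb6. It was also found before the outermost start of Itga3 and before the Fat1 start of the table, so that 4 of the 8 windows of these genes held it, and it is held by 17.2% of the 32851 windows of the table. The Itgb8 run also held CCAAT, which 33.8% of windows hold. Neither the Itgav nor the outermost Itgb6 run held any of the 7 words, which says only that these letters are absent from these windows. CpG steps numbered 18 in the Itgav run, 12 in that of Itgb8, 11 at the outermost Itgb6 start and 3 at the inner one, against a median of 6 (quartiles 2 and 16) over all windows.

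At the outermost 5′ end, open chromatin was listed for the genes of the 2 epithelial cadherins, Cdh1 and Cdh3, and for 1 integrin gene, Itgb8. These are 3 of the 10 genes (3 of the 8 epithelial ones), or 30.0%, whereas 38.3% of all protein-coding genes had a region midpoint within 1 kb of that end. With all regions of the list and the 1 kb limit, the share was thus no higher than that of genes at large. The other 5 epithelial genes and both Cdh2 and Cdh5 had no region there. All positions are in GRCm38, the build that the listed regions matched.

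The region at Cdh1 ran on chromosome 8 from 106603149 to 106603484 (336 bp, 2 summits), with its midpoint 34 bp upstream of the 5′ end. Its fold over the local background, as the authors' peak caller gave it for the strongest summit, was 7.77. The region at Cdh3 ran on the same chromosome from 106510593 to 106511315 (723 bp, 3 summits), with its midpoint 101 bp into the gene and a fold of 8.96. The region at Itgb8, the beta chain that pairs with the alpha chain of Itgav to activate latent TGF-beta, ran on chromosome 12 from 119237730 to 119239028 (fold 8.42). All 3 folds lay inside the quartiles of the 8174 regions within 1 kb of any protein-coding 5′ end (6.05 and 10.6, median 7.90). The Itgb8 region differed in breadth rather than in height. It spanned 1299 bp with 7 summits, and 34 of those 8174 regions (0.416%) had 7 or more summits.

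In 3 further epithelial genes, the closest region lay just beyond the 1 kb limit. For Itga2, the alpha chain of the collagen receptor on epithelial cells and platelets, it lay 1683 bp upstream (fold 5.96). For Itgav, the alpha chain shared by several receptors of matrix proteins and latent TGF-beta, it lay 1918 bp into the gene (fold 7.50). For Fat1, a very large cadherin at cell contacts and the leading edge, it lay 2030 bp into the gene (fold 8.68). With the limit at 2 kb, 5 of the 10 genes had a region, against 41.4% of all protein-coding genes.

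The choice of start site mattered for the integrins. The RefSeq table gives Itgav a start inside the outermost end, and the region on chromosome 2 from 83723890 to 83724553 had its midpoint 176 bp upstream of that start and its strongest summit 58 bp downstream of it. For Itgb6, the beta chain that pairs with the alpha chain of Itgav in epithelia, the outermost end was 19057 bp from the closest region. Its inner start, by contrast, had a region of 146 bp on chromosome 2 from 60673702 to 60673847, with the midpoint 81 bp upstream and a fold of 5.07. Of the 14 regions of that gene it was the narrowest and had the lowest score for reproducibility between replicates (an IDR score of 543). The start of Fat1 in the table had its closest region 12099 bp away. For Itga3, the alpha chain of a laminin receptor, the inner start had its closest region 1214 bp upstream, just outside the limit, and the outer one had its own 3685 bp downstream. Counting any start of the table, where it holds the gene, 5 of the 10 genes had a region (Itgav, Itgb6, Itgb8, Cdh1 and Cdh3), against 41.0% of all protein-coding genes counted in the same way and 42.0% of the genes in the table. Cdh2 and Cdh5 are not in the table and so could not gain a region in this way.

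**Figure D1:**
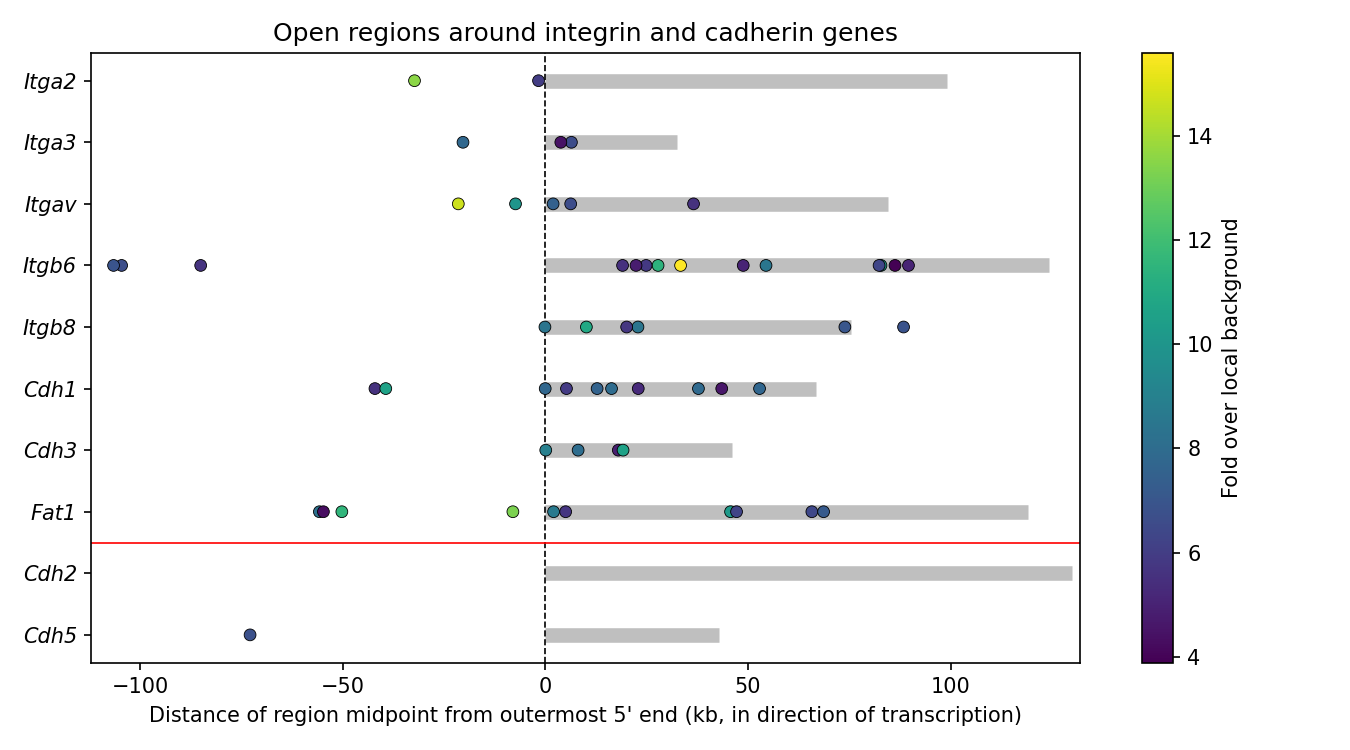
Position of each region assigned to a gene (points, coloured by fold over the local background) by distance in kb from the outermost 5′ end, in the direction of transcription; grey bars are gene bodies, that of Cdh2 being drawn only to the edge, and the red line sets off Cdh2 and Cdh5. The 8 epithelial genes have 52 of their 68 regions within 100 kb of the 5′ end, whereas Cdh5 has 1 and Cdh2 has 0; regions farther than the axis and regions assigned to other genes are not drawn.

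Within the gene, opening was the rule for the epithelial members. Of the 8 epithelial genes, 7 held at least 1 region, and 39.5% of all protein-coding genes did so. At least 3 regions lay within 6 of them (Itgav, Itgb6, Itgb8, Cdh1, Cdh3 and Fat1), and within 7.68% of all protein-coding genes. That share was not matched for length, and these 6 genes are 46.1 to 124 kb long, against a median of 17.6 kb. Longer genes hold regions more often. The share with at least 1 region was 48.2% for genes of 20 to 40 kb, 59.1% for 40 to 80 kb and 70.6% for 80 to 160 kb. Together the 8 genes held 37 regions, or 5.71 per 100 kb of gene, against 1.60 per 100 kb over all protein-coding genes. Itga2 was the exception, with 0 regions along 99.0 kb. Holding a region was not particular to the 8 genes among the relatives counted below. At least 1 was held by 14 of 21 other integrin subunits, 7 of 7 catenin genes, 10 of 11 integrin activators and adaptors and 8 of 14 ligand genes. The numbers were lower for other cadherins, with 4 of 15 listed as classical and 2 of 5 Fat and Dachsous genes.

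Itgb6 held the most regions, 11 in 124 kb, and 99.5% of protein-coding genes held fewer. Their folds ran from 3.89 to 15.6, and 4 of them had an IDR score of 1000, the highest score of the list. The strongest lay 33.4 kb into the gene, on chromosome 2 from 60689000 to 60689471, and 97.6% of all regions in the list had a lower fold. A second strong region lay 27.8 kb into the gene, with a fold of 11.4. All 10 regions of the gene body other than that at the inner start lay over 5 kb from either start.

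Cdh1 held 7 regions in 66.9 kb, the highest number per length among the 10 genes (10.5 per 100 kb). They were spread from 5.21 kb to 52.9 kb into the gene, with folds from 4.60 to 7.99. Cdh3 held 4 regions in 46.1 kb, or 8.68 per 100 kb, including that at its 5′ end. The strongest, 19.2 kb into the gene on chromosome 8 from 106529807 to 106530249, had a fold of 10.6. Cdh3 and Cdh1 are neighbours in the same orientation, with 0 other protein-coding 5′ ends between them. The 46.4 kb from the end of Cdh3 to the start of Cdh1 held 2 regions, of which the stronger, on chromosome 8 from 106563671 to 106564280, had a fold of 10.6 and stood above the Cdh1 promoter region. From the start of Cdh3 to the end of Cdh1, 14 regions lay in 159 kb.

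Fat1 held 6 regions in 119 kb. The strongest of these lay 45.7 kb into the gene, with a fold of 10.2. Itgb8 held 4 regions in 75.5 kb besides that at its start, whose midpoint lay just outside the gene, and the strongest was 10.1 kb into the gene on chromosome 12 from 119227893 to 119228412 (fold 10.9). Itgav held 3 regions in 84.6 kb, with folds from 5.56 to 7.50. Itga3 held 2 regions in 32.4 kb, with folds of 4.44 and 6.60. The integrins thus ranged from 0 to 11 regions within the gene. Whether regions lay in exons or introns was not analysed here, because exon positions of GRCm38 were not used.

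Regions farther than 1 kb from every protein-coding 5′ end were then each given to the gene whose end was nearest, which need not be the gene it acts on. All 10 genes had at least 1 region of this kind, as had 40.4% of protein-coding genes, and the numbers ran from 1 for Cdh2 to 23 for Fat1. Fat1 stood above 99.9% of genes. There were 5 or more for 6 of the 10 genes, as for 6.4% of protein-coding genes. These counts take no account of how much of the genome fell to each gene. To Fat1 fell 681 kb, against a median of 48.5 kb for all protein-coding genes. Per 100 kb, Fat1 had 3.38 such regions, above the 0.908 of all protein-coding genes but below the 3.94 of the 8 epithelial genes together. Of the 24 regions counted for Fat1 in all, 18 lay upstream and 14 of these more than 100 kb away, in a stretch with no other protein-coding 5′ end for 1230 kb. The closest upstream one, 8.01 kb away on chromosome 8 from 44924831 to 44925348, had the highest fold of the gene (13.3).

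Itgb6 had 12 nearest regions, Cdh1 had 7, Itgav and Itgb8 had 5 each, Itga3 and Cdh3 had 3 each, and Itga2 had 2. Those of Itga2 and Itgav included regions of high fold upstream of the gene. The upstream region of Itga2, 32.3 kb away on chromosome 13 from 114964216 to 114964559, had a fold of 13.6, above 94.6% of all regions. That of Itgav, 21.5 kb away on chromosome 2 from 83700526 to 83701125, had a fold of 14.7, above 96.5% of all regions. For Itga3, the strongest lay 20.3 kb upstream, with a fold of 7.78. In the 3 genes with a region at the 5′ end, Itgb8, Cdh1 and Cdh3, a region elsewhere had a higher fold than that at the end. This sets 1 region against the highest of several. Over the whole list, regions within 1 kb of a protein-coding 5′ end had the higher median fold (7.90, against 6.87 for the others).

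When 5′ ends of genes of any type were used instead, many of the regions fell nearer to a non-coding gene. The number for the 10 genes then fell from 68 to 31, with 9 for Fat1 and 1 for Itgb6. That for Cdh2 fell from 1 to 0 and that for Cdh5 from 7 to 0. Itga2, Itga3 and Cdh3 had as many as before (2, 3 and 3), Cdh1 had 5, and Itgav and Itgb8 had 4 each.

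**Figure D2:**
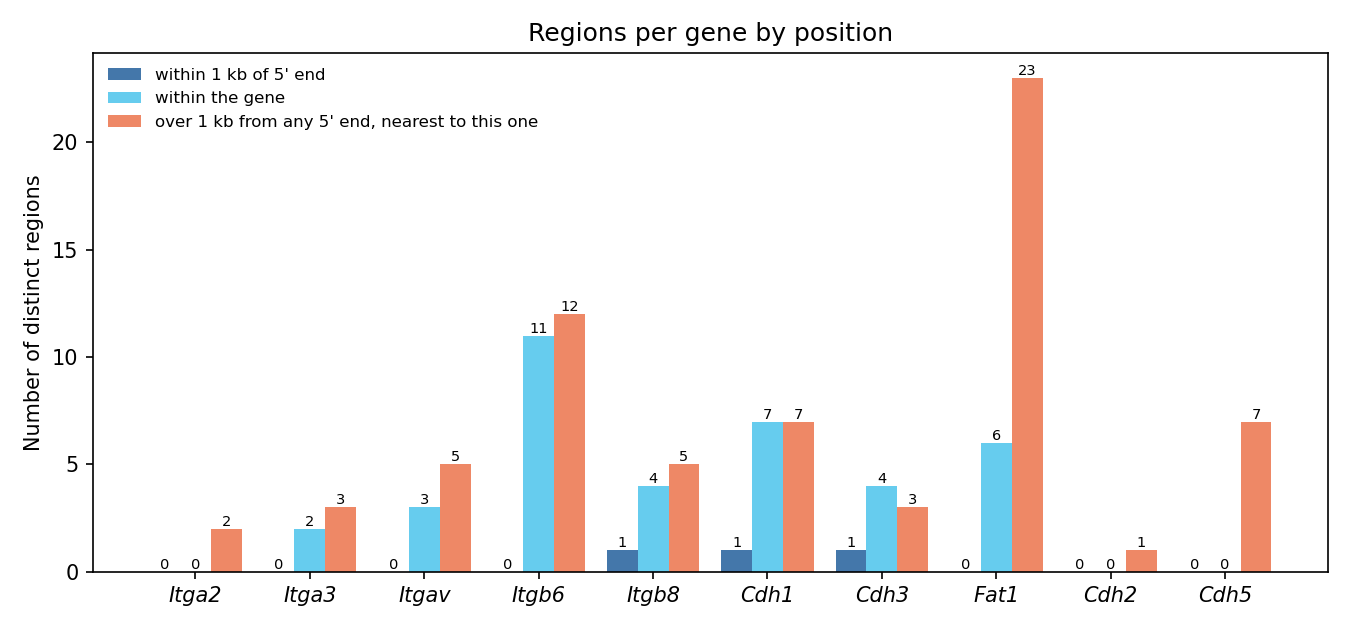
Number of distinct regions (vertical axis) for each gene within 1 kb of the outermost 5′ end, within the gene, and outside that distance of every protein-coding 5′ end but nearest to this one; a region within a gene can also be counted as nearest. Only Itgb8, Cdh1 and Cdh3 have a region at the end itself, and Itgb6 (11) and Fat1 (23) have the most within the gene and nearest to it.

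Cdh2 and Cdh5, the cadherins of mesenchyme and endothelium, had 0 regions at the 5′ end and 0 within the gene. Cdh2 is the longest of the 10 genes (220 kb), and 72.1% of protein-coding genes of 160 to 320 kb held at least 1 region. Of genes of 40 to 80 kb, the band of Cdh5 (42.9 kb), 59.1% did so. The closest region to the 5′ end of Cdh2 lay 482 kb upstream, on chromosome 18 from 17290884 to 17291265 (fold 9.40). The stretch without any region around Cdh2 was 1608 kb long, and 168 of the 31990 stretches between consecutive regions (0.525%) were longer, 7 of them on the same chromosome. Cdh2 has few genes around it, as the next protein-coding 5′ ends lay 1049 kb and 3193 kb away. Chst9, the nearer of these, had no region at its end, and the desmosomal cadherin gene Dsc3, on the other side, had 1.

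Around Cdh5, the stretch without a region was 117 kb long, from 72.7 kb before the gene to 1.91 kb after it. The 7 regions nearest to its 5′ end all lay upstream, from 72.9 kb to 581 kb away, in the 1316 kb towards Cdh11, a mesenchymal cadherin. Their folds ran from 5.07 to 12.1, and 2 of the 7 had an IDR score of 1000. The sequence nearest to the 5′ end was 2119 kb for Cdh2 and 690 kb for Cdh5, so that these genes had 0.0472 and 1.01 regions per 100 kb of it. For the 8 epithelial genes together the density was 3.94 per 100 kb, from 1.49 for Itga2 to 8.32 for Cdh1, and for all protein-coding genes 0.908 per 100 kb. Cdh5 thus had an empty gene and 5′ end, while the density of regions around it was near that of all genes.

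Within 20 kb of the 5′ end, whichever gene a region was assigned to, all 8 epithelial genes had at least 1 region (61.2% of protein-coding genes), and Cdh2 and Cdh5 had 0. Within 100 kb, where 82.5% of protein-coding genes had a region, the number was 15 for Cdh1, 12 for Itgb6, 10 for Cdh3 and for Fat1, 8 for Itga3, 7 for Itgav, 6 for Itgb8, 3 for Cdh5, 2 for Itga2 and 0 for Cdh2. The median of all protein-coding genes was 4. Itga2 and Cdh5 thus overlapped in this measure, and the contrast between the epithelial genes and Cdh5 did not hold for Itga2. Without replicates, the difference between the 8 genes and Cdh2 and Cdh5 has no test.

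In the height of their regions, the genes lay close to the list as a whole. The 68 regions of the epithelial genes had a median fold of 7.32 (quartiles 5.74 and 9.86), against 7.11 (quartiles 5.70 and 9.32) for all regions. The 8 regions nearest to Cdh2 and Cdh5 had a median of 6.33. An IDR score of 1000 was given to 34 of the 68 regions (50.0%), to 3 of the 8, and to 45.1% of all regions. The median widths were 398 bp for the epithelial genes and 402 bp for the list. The folds of the regions of the epithelial genes thus lay near those of the list.

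**Figure D3:**
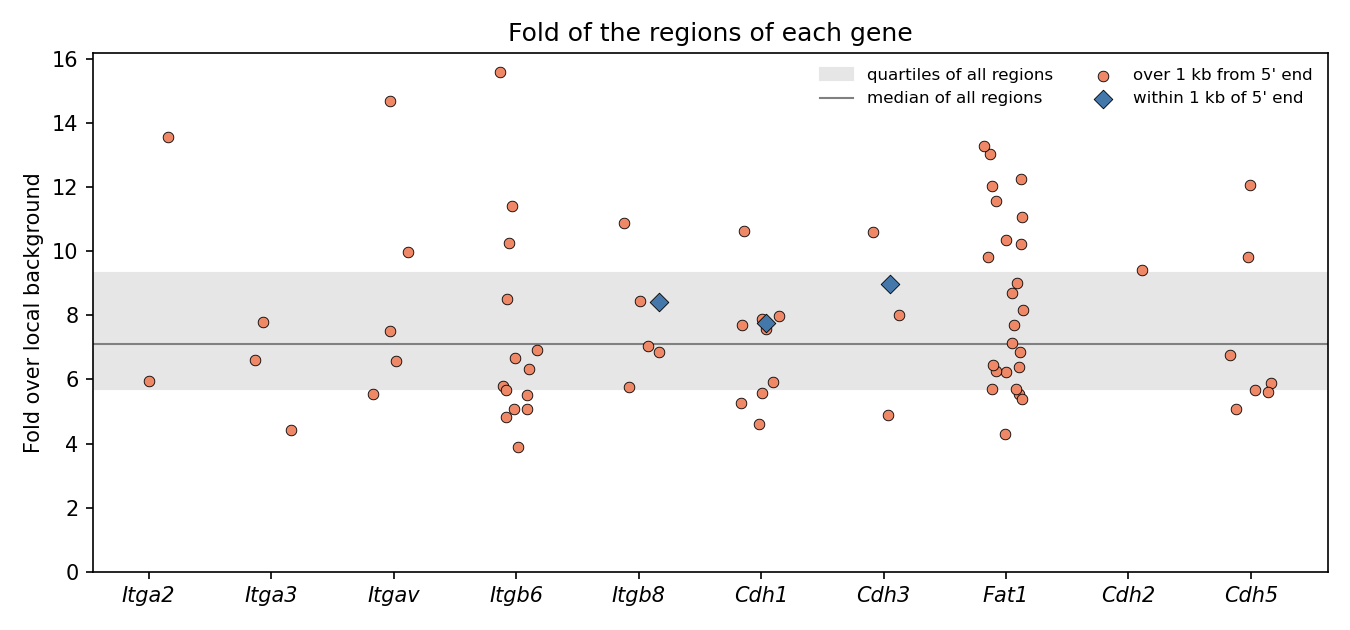
Fold over the local background (vertical axis) of every region assigned to each gene, as diamonds within 1 kb of the outermost 5′ end and as circles elsewhere; the grey band and line are the quartiles (5.70 and 9.32) and the median (7.11) of all 32011 regions. The 3 diamonds lie inside the band, and 7 of the 8 epithelial genes have at least 1 region above it. Of the 68 regions of these 8 genes, 18 lie above the band, as does the top quartile of all regions by definition.

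The partners and relatives of these genes were counted from fixed lists. An open 5′ end was listed for 3 of 15 other alpha subunits (Itga5, Itga6 and Itga8) and for 3 of 6 other beta subunits (Itgb1, Itgb4 and Itgb5), in both cases to be read against 38.3% of all protein-coding genes. Itgb1, the common beta chain that pairs with Itga2 and Itga3, had a region on chromosome 8 from 128685306 to 128685889 reaching a fold of 10.7, higher than any of the 5′ end regions of the 10 genes. Itgb4 and Itga6, the chains of the hemidesmosome receptor, had folds of 4.61 and 6.77 there. Itgb5, another partner of Itgav, had 7 regions within the gene. The leukocyte subunits Itgad, Itgal, Itgam, Itgax and Itgb7 had no region at the 5′ end, in the gene or nearest to it, and neither had Itga7 and Itga9, which are not of that group. Of all protein-coding genes, 37.1% had none of the 3 kinds. Other subunits found on leukocytes did have regions, with 2 within Itgae, 2 within Itga4 and 1 within Itgb2.

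Among 15 other cadherins, listed together as classical, Cdh4 (fold 4.81) and Cdh24 (fold 5.81) had an open 5′ end, against 38.3% of all protein-coding genes. A region within the gene was held by 4 of the 15, against 39.5% of all protein-coding genes. Cdh4 held 0 regions within its 457 kb. Cdh11 had 0 regions of any of the 3 kinds. Cdh13 held 10 regions within the gene, but along 1185 kb. Of the other Fat and Dachsous genes, 0 of 5 had an open 5′ end. Fat3 held 8 regions within the gene, along 592 kb. Per length, Cdh13 and Fat3 thus held fewer regions than the 1.60 per 100 kb over all protein-coding genes. The 7 catenin genes, whose products bind the cadherin tail or each other, included 4 with an open 5′ end (Ctnna1, Ctnna3, Ctnnb1 and Jup). That is 57.1%, against 38.3% of all protein-coding genes. The 5′ end region of Ctnnb1, encoding beta-catenin, had a fold of 4.16, and that of Jup, encoding plakoglobin, 7.65. Ctnnd1, encoding the p120 catenin that holds cadherins at the membrane, had no region at the outermost end but had 7 within the gene. A start of Ctnnd1 in the promoter table did have a region within 1 kb.

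An open 5′ end was listed for 8 of 11 integrin activators and adaptors (72.7%) and for 3 of 14 ligand genes, against 38.3% of all protein-coding genes. The 8 included the talin gene Tln1, the kindlin gene Fermt1 and the vinculin gene Vcl, but not Tln2, Fermt2 or Fermt3. Tnc, a matrix protein bound by several integrins, had 20 nearest regions, and 6.4% of protein-coding genes had 5 or more. The sequence nearest to its 5′ end was 629 kb, against a median of 48.5 kb for all protein-coding genes. These counts were not tested against each other or against the 10 receptor genes.

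**Figure D4:**
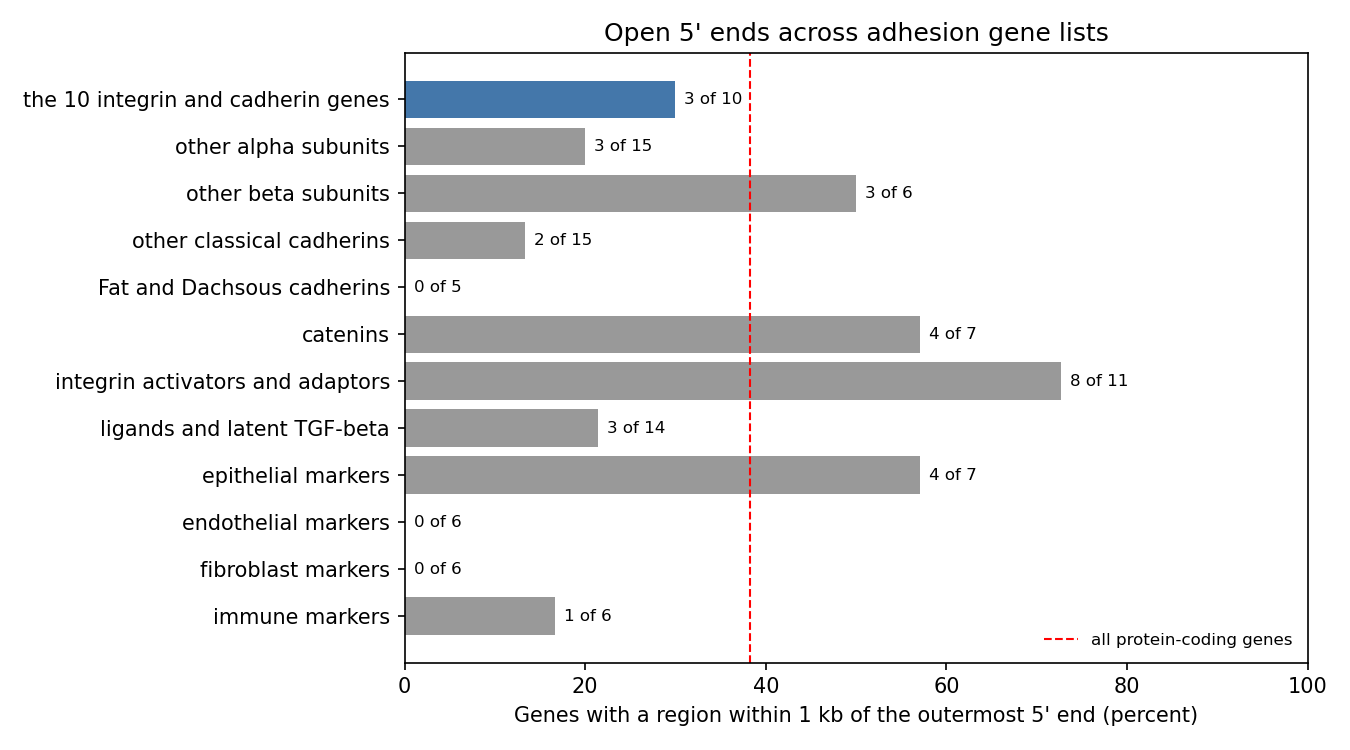
Share of the genes of each list (percent, horizontal axis) with a region within 1 kb of the outermost 5′ end, with the number of genes beside each bar; the dashed line marks all protein-coding genes (38.3%). The 10 integrin and cadherin genes (3 of 10) lie below the line, but above the share of all genes within 2 kb (5 of 10 against 41.4%), and integrin activators and adaptors (8 of 11) lie farthest above it.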

How the data were processed

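ATAC-seq peaks were deposited as 1 list for the 4 mSGO samples. Alignment and peak calling by the authors used the ENCODE pipeline for ATAC-seq, whose version is not given in the sources used here, and the study's methods describe a consensus file of all organoid samples, which the list was taken to be, although its number of peaks is not the one given there. For each of 69545 summits, the deposited list gives an IDR score, a fold (ratio) over local background and a −log10 q-value, all made by the authors' pipeline, and a p-value that was not used. Lines of the same region were joined into 1 of 32011 distinct regions that carried the highest fold. HOMER and GRCm39 are named in the submitters' processing notes. However, a region midpoint lay within 1 kb of 38.3% of 5′ ends of GRCm38.p6 (95% Wilson interval 37.6 to 38.9, counting error only), of 3.77% after a shift by 50 kb and of 5.04% of GRCm39 ends, so positions were read as GRCm38.

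The RefSeq gene table gives no strand. Strand came from the RefSeq promoter table for 17491 protein-coding genes and, by gene name and chromosome, from GENCODE release M39 for 3945, whose coordinates served only to check the build. The 2 sources gave the same strand for 15616 of the 15717 genes in both. A region was counted at a 5′ end when its midpoint lay within 1 kb of the outermost end, in a gene when its midpoint lay between the outermost ends, and as nearest when it lay over 1 kb from every protein-coding 5′ end. Of these, 77 regions beyond the outermost ends of chromosomes were left out. Counting was tested on simulated regions. The members and lists were chosen with earlier results of these data known. Named genes are the 10 members, list genes with a region at the 5′ end where a list had 6 or fewer, and fixed partners; any others were picked once values were known, and 1 listed gene is not reported here. Values were computed in Python 3.11.15 with pandas 2.3.3 and numpy 2.4.6, intervals with scipy 1.17.1, and plots with matplotlib 3.10.9. No test was run, since no column holds values of 1 sample.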

Additional observations from a re-analysis of the deposited data

How the results depend on the processing

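No paired analysis was possible because the list gives nothing per sample, and for the same reason leaving out a replicate was not run. The number of genes with a region at the outermost 5′ end was 3 with IDR scores of 1000, with the stricter regions by q-value (those below the median), with every line counted, within 500 bp, with any overlap and with either gene end, and 5 within 2 kb and with any start of the promoter table, a setting chosen after seeing the data. Of all protein-coding genes, 24.0% had such a region with IDR scores of 1000 and 25.9% with the stricter regions by q-value. Both shares were below the 30.0% of the 10 genes. In the other settings with 3 genes, the share over all genes was 35.3% to 39.9%. It was 41.4% within 2 kb and 41.0% with any start of the promoter table. In all of these settings, Cdh2 and Cdh5 had 0, so the number for the 8 epithelial genes was the same, 3 or 5. The promoter table does not hold Cdh2 or Cdh5, however, so counting its starts could not have added a region for them. Regions within the genes, 37 in the report, numbered 15 at IDR scores of 1000, 19 among the stricter regions by q-value and 74 by lines, while nearest regions, 68 in the report, numbered 34, 38 and 142, and 31 with 5′ ends of any gene type; the first 2 settings hold fewer regions and lines hold more by construction. Of the other numbers, 39 with any overlap and 66 beyond 2 kb stayed within 1.5 times. The unknown depth and the filter for reproducibility limit what an empty promoter or gene shows.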
